A study of Mus musculus with 3 samples.

Results

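Small annotated exonic parts, 3 to 51 nt long, were examined in 3 muscles from wild-type C57BL/6 males at 8 weeks of age. The muscles were cardiac apex, whole EDL and whole soleus. EDL (extensor digitorum longus) is a mostly fast muscle of the lower leg, and soleus is a calf muscle rich in slow fibres. An exonic part is a stretch of annotated exon between neighbouring exon boundaries, so a small part can be a whole small exon or one end of a longer exon. The members were selected on length, on annotation and on coverage, which had to reach 30 consensus reads in at least 1 library, and parts of Ttn, Neb and Nrap were left out. This gave 626 parts in 112 genes, out of 27271 parts in the table, of which 5053 had the same coverage. Total RNA had been reverse transcribed with barcoded primers, cDNA of 5 to 10 kb was selected, and single molecules were sequenced from end to end by PacBio Iso-Seq. With 1 library a tissue, none of the differences below has a replicate check, and the number of mice behind a library is not stated in the labels. For each part the deposited counts say how many reads cover its place and how many of those hold it, and the share that hold it is the measure used throughout.

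Small exons are hard for a spliceosome to recognise, because the proteins bound at either end have little room, and many of them need nearby enhancer sequences and tissue-specific splicing factors. Those whose length is divisible by 3 can be added or skipped without shifting the reading frame, and in muscle and brain they are known to change short loops at protein surfaces. A second way to make a small change is a pair of splice sites close together, where the choice of the nearer or the farther one adds or removes a few bases at the edge of an exon.

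Sequences are shown for the coding parts on which the results turn. They were read from GENCODE M21 transcripts (GRCm38), in the direction of transcription and spliced, with the part in capitals and up to 20 bases of the neighbouring exon sequence on either side in lower case. The first set holds small parts that differed between libraries, of which all but the Cltc part touch no other annotated part. They lie at chr6:142648027-142648065, minus strand (Abcc9), chr1:118541675-118541698, plus strand (Clasp1), chr11:86701061-86701081, minus strand (Cltc), chr4:149261160-149261201, minus strand (Kif1b) and chr11:94113263-94113301, plus strand (Spag9).
Abcc9 part 25: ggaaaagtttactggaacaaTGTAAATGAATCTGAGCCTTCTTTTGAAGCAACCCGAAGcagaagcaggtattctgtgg
Clasp1 part 60: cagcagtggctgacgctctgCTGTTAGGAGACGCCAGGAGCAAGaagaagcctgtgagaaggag
Cltc part 6: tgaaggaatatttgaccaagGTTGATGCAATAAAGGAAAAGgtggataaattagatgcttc
Kif1b part 52: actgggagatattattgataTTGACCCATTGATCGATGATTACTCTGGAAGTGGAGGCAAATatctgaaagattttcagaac
Spag9 part 51: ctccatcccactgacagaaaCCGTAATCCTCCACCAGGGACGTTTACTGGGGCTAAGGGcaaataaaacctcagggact

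The second set shows 5 parts that sit at the edge of a longer exon and 2 whole small exons, all of intermediate use. They lie at chr7:115597617-115597619, minus strand (Sox6), chr2:29710153-29710155, plus strand (Rapgef1), chr5:121144685-121144696, minus strand (Ptpn11), chr1:84745171-84745185, minus strand (Trip12), chr2:69991626-69991637, plus strand (Ubr3), chr2:30014158-30014172, plus strand (Sptan1) and chr7:67244521-67244544, minus strand (Mef2a). In Sox6, Rapgef1, Ptpn11 and Trip12 the part is at the 5′ edge of its exon and ends in AG, and in Ubr3 it is at the 3′ edge and begins with GT.
Sox6 part 21: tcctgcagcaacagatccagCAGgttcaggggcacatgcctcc
Rapgef1 part 16: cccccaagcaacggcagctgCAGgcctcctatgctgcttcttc
Ptpn11 part 11: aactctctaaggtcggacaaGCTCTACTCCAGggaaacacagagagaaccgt
Trip12 part 27: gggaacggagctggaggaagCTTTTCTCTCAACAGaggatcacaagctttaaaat
Ubr3 part 36: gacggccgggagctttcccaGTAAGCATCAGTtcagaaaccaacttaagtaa
Sptan1 part 56: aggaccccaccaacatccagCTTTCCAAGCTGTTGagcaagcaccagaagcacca
Mef2a part 13: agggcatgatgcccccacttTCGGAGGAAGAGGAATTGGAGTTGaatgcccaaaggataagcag

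The libraries held 18302, 19826 and 17459 consensus reads in genes for cardiac muscle, EDL and soleus. Each full-length read stems from 1 sequenced molecule, and clusters of like full-length reads are merged into consensus reads. Over a small part, the median number of full-length reads was 83, 104 and 119 in the same order, and 15, 4 and 13 parts had 0 reads. The labelled tissues were checked against their myosins. Myh6, the cardiac alpha heavy chain, had 2060, 30 and 31 consensus reads, Myh4, the fast IIb chain, 17, 432 and 135, and Myh7, the slow chain, 38, 18 and 433. Nppa and Myl7, cardiac genes with transcripts shorter than the cDNA selected, were at 0 in every library. In whole-tissue RNA, fewer cells of a type and less RNA per cell cannot be told apart, and neither can a change of cell mixture and a change of splicing. Markers of other cells had 1, 13 and 19 reads in sum for fibroblasts and matrix, 58, 41 and 39 for endothelium, 19, 26 and 22 for smooth muscle and pericytes and 19, 16 and 15 for blood and immune cells. Col3a1, Pdgfra, Dcn, Pecam1, Cdh5, Acta2 and Ptprc were at 0 in all 3, and so were Myl2 and Tnni1, short transcripts of slow fibres, so counts of short markers say little about the cells present. The part of other cells in the differences below was not tested. Intervals given with shares are exact Clopper-Pearson 95% intervals, and beside 0 reads the upper limit is that of 3 reads. Both cover counting error only.

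Most small parts did not vary. Of the 626, 429 were held by over 95% of full-length reads in every library with at least 20 reads, and 128 by under 5% in every such library. The other 69 were of intermediate use, meaning that 5 to 95% of the reads held the part in at least 1 library with 20 reads. The 31 of these that are coding and had no called difference are plotted further on. Mef2c parts 11 to 14 and 26 and Tbc1d1 part 23, called below, count here as not varying. Their cardiac libraries had under 20 reads and so did not enter. With them, 75 parts were of intermediate use or called. In GENCODE M21, 444 members were coding, 134 untranslated, 42 in non-coding transcripts and 6 partly coding, and 141 touched no other annotated part.

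In-frame parts were more often of intermediate use than out-of-frame parts. Of 283 members with a length divisible by 3, 43 were of intermediate use (15.2%), and of the 343 others 26 (7.58%). Among all annotated parts with the same coverage the shares were 14.4% in-frame and 5.18% out-of-frame. Among those over 51 nt outside Ttn, Neb and Nrap they were 6.27% and 3.48%, so small parts lay higher than long ones in both classes. The in-frame share of small parts is close to that of all annotated in-frame parts, a class that includes Ttn and Neb. In coding parts the gap was wider, with 36 of 208 in-frame (17.3%) and 12 of 236 out-of-frame (5.08%), and in untranslated parts the order was the other way, with 7 of 56 (12.5%) and 11 of 78 (14.1%).

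The gap between frames differed with the place of the part in its exon. At the 5′ end of a longer exon, 13 of 71 in-frame parts were of intermediate use (18.3%) and 1 of 92 out-of-frame parts (1.09%). At the 3′ end the shares were 12.3% of 57 and 9.57% of 94, and among parts that touch no other 14.9% of 87 and 7.41% of 54. Parts of 1 exon share its reads, so these counts are a description and no test was run on them.

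**Figure D1:**
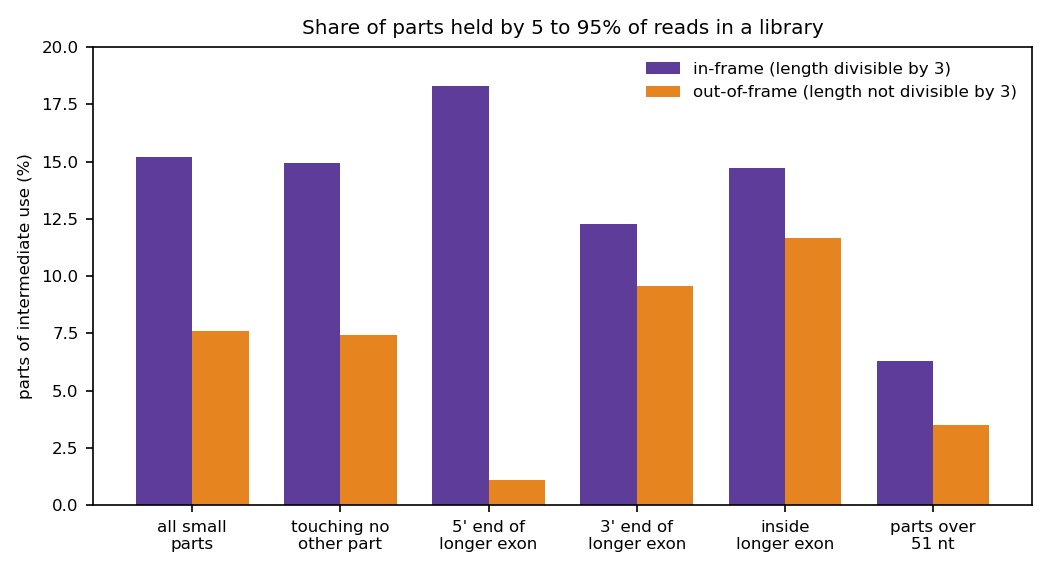
Share of annotated parts of intermediate use (y axis, percent), for in-frame and out-of-frame small parts by their place in the exon and, at the right, for parts over 51 nt. Place is that in the annotation, and some of the longer exons were hardly read in these libraries. The widest gap was at the annotated 5′ end of longer exons, 18.3% against 1.09%.

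The bases at the ends of these parts were read after their values had been seen. A splice acceptor ends in AG, so a part added by choosing the upstream of a pair of acceptors ends in AG. Of 12 coding parts at the 5′ end of their exon that were of intermediate use or differed between libraries, 10 ended in AG (83.3%), against 32 of 102 other coding parts at that place (31.4%). The 10 lie in Chd4, Cltc, Mast2, Myo18a, Ogt, Ptpn11, Rapgef1, Sox6 and Trip12, with a pair in Mast2, and those of Cltc and Myo18a and the longer Mast2 part are also whole small exons in some transcripts. Downstream of these, the touching part was held by no read, apart from 0.299% of EDL reads in Cltc. In these libraries they were thus used as separate exons, and their AG does not mark an added edge. Over all 439 coding parts with a sequence, 41.2% ended in AG. A splice donor begins with GT, and at the 3′ end of an exon 2 of 12 variable coding parts began with GT (16.7%), against 20 of 108 others (18.5%) and 13.9% of all coding parts. Letters were read on the transcribed strand, and a match is not a mapped splice site.

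Shares were compared in each pair of libraries by Fisher's exact test (two-sided) of the full-length counts, where each library had at least 10 reads. P-values were adjusted by the Benjamini-Hochberg method over all parts of the table. A part was called when the adjusted p was under 0.05 and the shares differed by at least 20 percentage points, with the coverage of 30 consensus reads that selects the members. The test compares libraries, not tissues. In cardiac muscle against EDL, 22 of 559 members were called, 15 higher in cardiac muscle and 7 in EDL. That is 3.94%, against 5.11% of all parts and 1.01% of annotated parts over 51 nt outside Ttn, Neb and Nrap. In cardiac muscle against soleus, 24 of 564 were called (4.26%), 15 higher in cardiac muscle and 9 in soleus, against 3.76% and 0.741%. In EDL against soleus, 12 of 597 were called (2.01%), 9 higher in EDL and 3 in soleus, against 1.04% and 0.439%. The comparisons share libraries and are not independent.

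In all, 32 parts in 20 genes were called in some pair, 17 in-frame and 15 out-of-frame. Neighbouring parts of an exon that move together are 1 event: counting touching parts with shares within 5 points once leaves 24. Mef2c alone holds 10 of the 32. All 32 are on the authors' deposited lists, curated by hand, 19 on the list of parts kept and 13 on the list of artifacts, the latter in Abcc5, Amotl1, Lmo7, Mef2c and Ppp1r12b. In GENCODE M21, 18 of the 32 are coding, 12 untranslated and 2 in a non-coding transcript. A first or last exon of some transcript holds 23 of them (71.9%), against 361 of all 626 members (57.7%). At such exons the share alone does not tell a different start or end of transcription from different splicing. The cover of neighbouring parts is given below for some of them, and where reads begin or end was not tested.

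**Figure D2:**
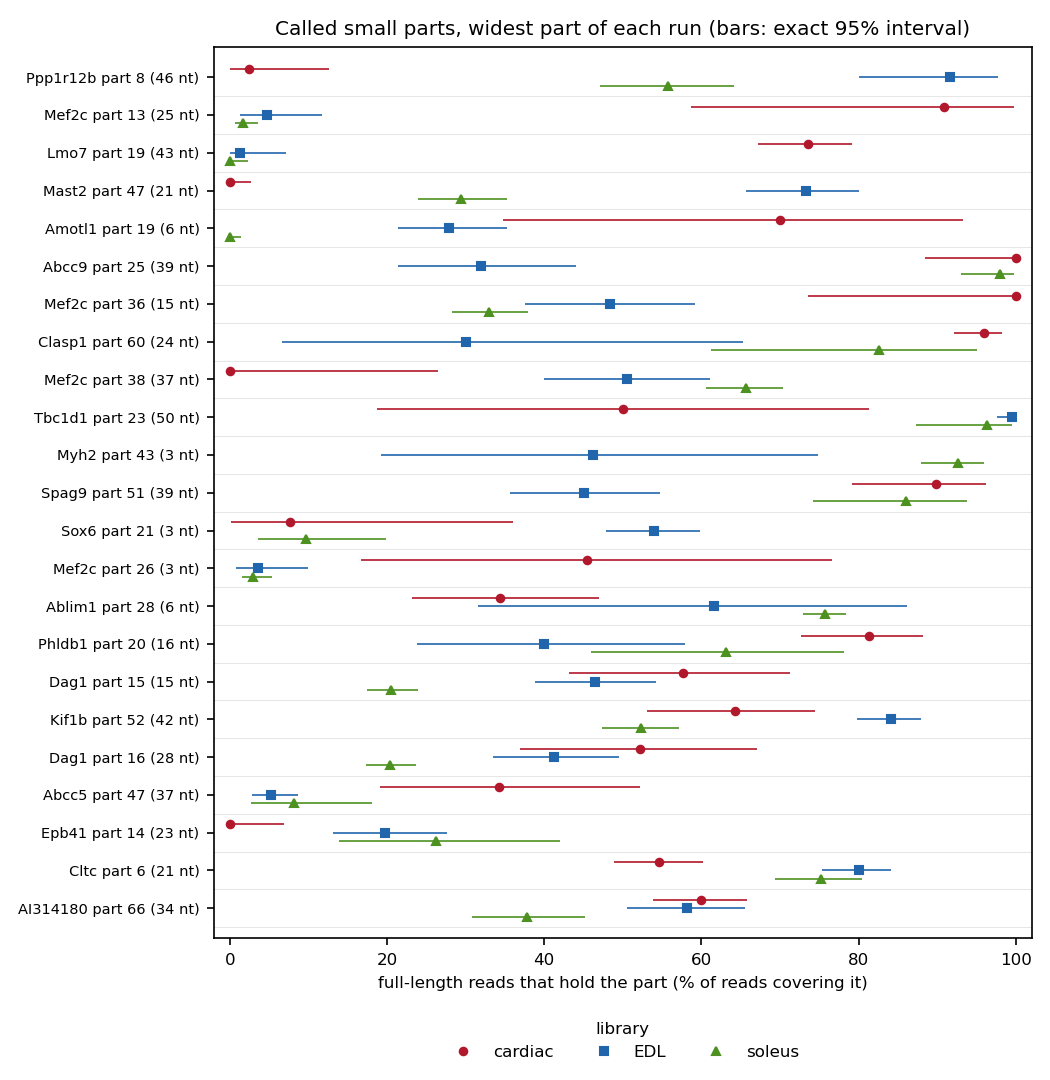
Share of full-length reads holding each called small part (x axis, percent), 1 part for each of 23 of the 24 runs, in cardiac muscle (circles), EDL (squares) and soleus (triangles), with exact 95% intervals. The widest difference was at Ppp1r12b part 8, from 2.38% in cardiac muscle to 91.7% in EDL.

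Full-length reads of 1 consensus read share its exon calls, so they are not independent molecules and the p-values are too small. Counting consensus reads instead, 57 of the 58 called combinations of part and pair kept their direction and 42 still differed by 20 points or more. With the test also on consensus reads, 6 of 22, 4 of 24 and 1 of 12 calls passed in the 3 pairs. These are 6 parts in 5 genes, among them Abcc9 part 25, Lmo7 parts 18 and 19, Mast2 part 47 and Ppp1r12b part 8. A library with under 20 full-length reads over the part enters 12, 12 and 1 of the calls.

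**Figure D3:**
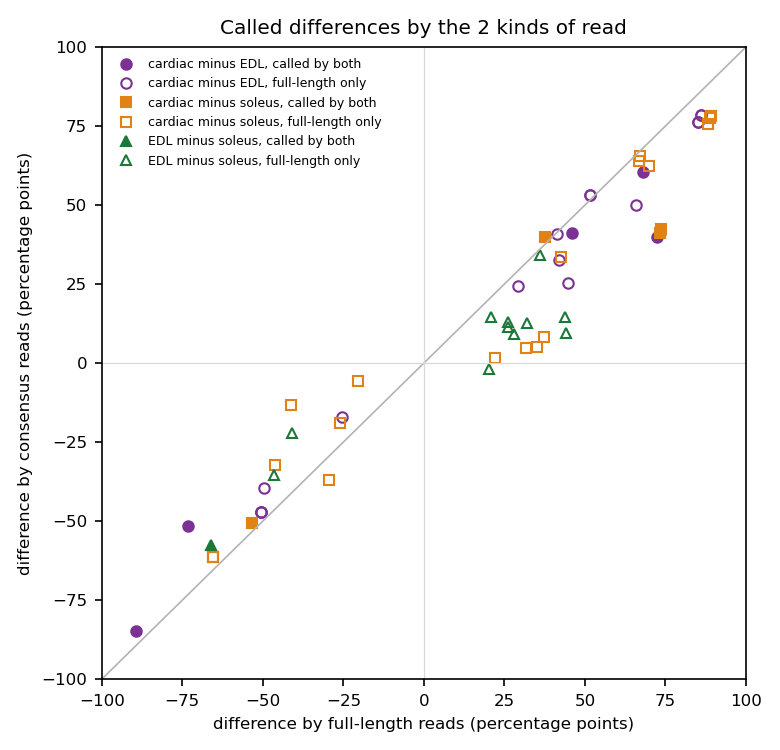
Called differences in share by full-length reads (x axis, percentage points) and by consensus reads (y axis), 1 point for each of 58 combinations of part and pair, filled where both kinds of read gave a call. In 54 the consensus difference was the smaller in size, and 1 of the 58 points, AI314180 part 66, has the opposite sign by consensus reads.

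Abcc9 part 25 was nearly always present in heart and soleus and mostly absent in EDL. Abcc9 encodes the sulfonylurea receptor SUR2, the regulatory subunit of muscle ATP-sensitive potassium channels. Its 39 nt part, a coding exon, was present in 30 of 30 cardiac reads (100%, interval 88.4 to 100), 23 of 72 EDL reads (31.9%, interval 21.4 to 44) and 99 of 101 soleus reads (98%, interval 93 to 99.8). The intervals of EDL and the other libraries do not overlap. The difference was 68.1 points against cardiac muscle (adjusted exact p = 9.93e-10) and 66.1 points against soleus (adjusted exact p = 5.61e-20, Fisher's test, Benjamini-Hochberg adjusted). By consensus reads the shares were 100%, 39.5% and 97.1%, and both calls passed (adjusted exact p = 9.8e-05 and adjusted exact p = 8.55e-05). The exons on either side, parts 24 and 26, were held by every read in each library. Another small part of the gene, untranslated part 3 of 38 nt, stood at 93.3%, 97.2% and 84.2% with no call.

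Ppp1r12b part 8 separated the 3 libraries. Ppp1r12b encodes MYPT2, a subunit that directs myosin phosphatase to its target in striated muscle. This 46 nt part (chr1:134765897-134765942), untranslated in the annotation, was held by 1 of 42 cardiac reads (2.38%, interval 0.0603 to 12.6), 44 of 48 EDL reads (91.7%, interval 80.02 to 97.7) and 78 of 140 soleus reads (55.7%, interval 47.1 to 64.1). All 3 pairs were called, with adjusted exact p = 2.09e-17 for cardiac muscle against EDL, 3.96e-09 for cardiac muscle against soleus and 0.000699 for EDL against soleus. The touching part 9 of 135 nt had the same shares, which makes a run of 181 nt, and the parts on either side of the run stood above 95% in each library. By consensus reads, at 5.26%, 90% and 55.8%, the pairs with cardiac muscle passed and EDL against soleus did not (adjusted exact p = 0.642). The authors' list holds it as an artifact. Small coding parts 22 and 23 of the same gene stood at 97%, 96.4% and 93.2% each.

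Lmo7 parts 18 and 19 were found in the heart and hardly in the leg muscles. Lmo7 encodes a LIM domain protein of cell junctions and nuclear membranes. The parts touch (32 and 43 nt, chr14:101884087-101884118 and chr14:101884119-101884161), lie in a non-coding transcript of the annotation and together measure 75 nt, which is divisible by 3. Part 18 was held by 161 of 220 cardiac reads (73.2%, interval 66.8 to 78.9), 0 of 76 EDL reads (0%, allowing up to 3.95%) and 0 of 160 soleus reads (0%, allowing up to 1.88%). Part 19 was held by 164 of 223 cardiac reads (73.5%), 1 of 76 EDL reads (1.32%) and 0 of 160 soleus reads (0%). Cardiac reads were the high ones in both, with adjusted exact p = 1.91e-31 against EDL and 4.41e-54 against soleus for part 18. By consensus reads the cardiac share of part 18 was 41.3%, with both leg muscles at 0%, and both calls passed. Part 20, which touches part 19 downstream, was held by every read in each library. The exon upstream, part 17, was covered by 57 cardiac, 76 EDL and 160 soleus reads, against 220, 76 and 160 at part 18. Most cardiac reads over part 18 thus did not reach part 17, and where they begin was not tested. Part 19 is on the authors' list of artifacts and part 18 on the list of parts kept.

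Mast2 part 47 was absent from cardiac reads and most used in EDL. Mast2 encodes a microtubule-associated serine and threonine kinase. The 21 nt coding part (chr4:116333413-116333433) was held by 0 of 132 cardiac reads (0%, allowing up to 2.27%), 115 of 157 EDL reads (73.2%, interval 65.6 to 79.99) and 77 of 262 soleus reads (29.4%, interval 23.9 to 35.3). The order EDL, soleus, cardiac muscle was called at each step, with adjusted exact p = 7.1e-43 for cardiac muscle against EDL, 4.35e-14 against soleus and 9.71e-16 for EDL against soleus. By consensus reads, at 0%, 51.5% and 37%, only cardiac muscle against EDL passed (adjusted exact p = 0.00336). Its other variable small parts differed little between libraries: part 4 of 3 nt stood at 84.1%, 90.4% and 83.2% and part 50 of 49 nt, in a non-coding transcript, at 88.6%, 81.5% and 84%.

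Among genes of membrane traffic, microtubules and actin adaptors, 8 listed genes had 92 small parts, and 5 of those parts, in 5 genes, were called. Over all members 32 of 626 were called (5.11%), so the list lies near the background. The median of the widest difference between libraries was 0.513 points over this list and 0 points over all members. Besides Ppp1r12b these genes were Clasp1, Cltc, Kif1b and Phldb1.

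Clasp1, a protein that stabilises microtubule plus ends, has a 24 nt exon that EDL reads mostly lacked. Part 60 was held by 187 of 195 cardiac reads (95.9%, interval 92.1 to 98.2), 3 of 10 EDL reads (30%, interval 6.67 to 65.2) and 19 of 23 soleus reads (82.6%, interval 61.2 to 95). Only cardiac muscle against EDL was called, at 65.9 points (adjusted exact p = 1.89e-05), and the 10 EDL reads are the fewest allowed. They come from 8 consensus reads, too few for the consensus test. The 48 nt exon of Clasp1, part 45, was held by 1 of 195 cardiac reads (0.513%), 0 of 10 EDL reads (0%) and 2 of 23 soleus reads (8.7%).

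Cltc, the clathrin heavy chain that coats endocytic vesicles, was called with over 200 reads in each library. This member and Kif1b part 52 fall outside the 25 widest differences and were chosen after their values were seen. Part 6 of Cltc, 21 nt, was held by 171 of 313 cardiac reads (54.6%, interval 48.9 to 60.2), 268 of 335 EDL reads (80%, interval 75.3 to 84.2) and 188 of 250 soleus reads (75.2%, interval 69.4 to 80.4). Cardiac muscle lay below both leg muscles, by 25.4 points (adjusted exact p = 5.65e-10) and 20.6 points (adjusted exact p = 3.66e-05). By consensus reads the shares were 59.3%, 76.5% and 65.1% and neither pair passed, each with adjusted exact p = 1.

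Kif1b, a kinesin motor that carries mitochondria and vesicle precursors, was the only one of these genes called between EDL and soleus alone. Part 52, 42 nt, was held by 54 of 84 cardiac reads (64.3%, interval 53.1 to 74.4), 287 of 341 EDL reads (84.2%, interval 79.8 to 87.9) and 218 of 417 soleus reads (52.3%, interval 47.4 to 57.2). EDL exceeded soleus by 31.9 points (adjusted exact p = 2.51e-18). Cardiac muscle lay between them, 19.9 points below EDL and so just short of the 20 points required. By consensus reads the shares drew together, at 53.1%, 70.6% and 58%, and no pair passed.

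Phldb1, a membrane-bound protein that anchors microtubule ends at the cell cortex, held several small variable parts. Part 20, 16 nt (chr9:44700946-44700961), was held by 87 of 107 cardiac reads (81.3%, interval 72.6 to 88.2), 14 of 35 EDL reads (40%, interval 23.9 to 57.9) and 24 of 38 soleus reads (63.2%, interval 46 to 78.2). Cardiac muscle exceeded EDL (adjusted exact p = 0.000533; by consensus reads adjusted exact p = 0.0932), and soleus lay between them with no call. The touching part 21 moved with it, which makes the run 141 nt, divisible by 3. Parts 12 and 13, 15 and 18 nt and touching, stood at 32.7%, 34.3% and 47.4% and 33.6%, 34.3% and 47.4%, and the 45 nt exon part 17 at 56.1%, 42.9% and 65.8%, all with no call. Untranslated part 45, 16 nt, stood at 8.49%, 5.88% and 5.56%.

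Spag9 and Tbc1d1, outside the lists, act in motor transport and in vesicle traffic. Spag9, a scaffold that joins JNK signalling to motor proteins, has a 39 nt exon, part 51, which was held by 53 of 59 cardiac reads (89.8%, interval 79.2 to 96.2), 50 of 111 EDL reads (45%, interval 35.6 to 54.8) and 49 of 57 soleus reads (86%, interval 74.2 to 93.7). EDL lay below both others, by 44.8 points (adjusted exact p = 2.96e-07) and 40.9 points (adjusted exact p = 5.37e-05). By consensus reads, at 80.8%, 55.3% and 77.4%, it kept its place but neither pair passed. The exons on either side, parts 50 and 52, were held by every read in each library.

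Tbc1d1, a GTPase activator for Rab proteins that controls glucose transporter traffic in muscle, has a 50 nt coding part 23 (chr5:64284690-64284739). It was held by 5 of 10 cardiac reads (50%, interval 18.7 to 81.3), 229 of 230 EDL reads (99.6%, interval 97.6 to 99.99) and 52 of 54 soleus reads (96.3%, interval 87.3 to 99.5). Cardiac muscle was called below EDL (adjusted exact p = 1.74e-05) and below soleus (adjusted exact p = 0.0337). Its 10 cardiac reads come from 7 consensus reads. With the touching part 24 it forms a run of 120 nt, divisible by 3. The exon upstream, part 22 of 159 nt, had like shares, at 50%, 99.6% and 98.1%, so the difference was not confined to this run.

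In the costamere and membrane skeleton, 5 listed genes had 33 small parts, of which 4 were called, in Dag1 and Epb41, beside 5.11% of all members. The median widest difference was 0 points, and 3 of the 4 calls are neighbouring parts of Dag1. Dag1 encodes dystroglycan, the link between the dystrophin complex and the matrix. Its 3 called parts, 14, 15 and 16, are neighbouring untranslated pieces of first exons (chr9:108263710-108263736, chr9:108263737-108263751 and chr9:108263752-108263779), of 27, 15 and 28 nt. Part 15 was held by 30 of 52 cardiac reads (57.7%, interval 43.2 to 71.3), 80 of 172 EDL reads (46.5%, interval 38.9 to 54.3) and 129 of 629 soleus reads (20.5%, interval 17.4 to 23.9). Soleus lay lowest, 37.2 points below cardiac muscle (adjusted exact p = 2.41e-06) and 26 points below EDL (adjusted exact p = 1.8e-08). Parts 14 and 16 stood at 58.5%, 49.4% and 23.4% and 52.2%, 41.3% and 20.4%. The touching part 13, 85 nt, stood at 58.5%, 49.4% and 23.5%, so the difference was not confined to small parts. Cover fell from 53 cardiac, 174 EDL and 654 soleus reads at part 13 to 21, 95 and 515 at part 18. Where the reads begin or end was not tested. By consensus reads part 15 was at 45.5%, 50% and 37.1%, and neither pair passed. Part 14 is outside the naming rule and is given with its neighbours.

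Epb41, protein 4.1R, joins spectrin and actin to membrane proteins. Part 14, a 23 nt coding piece at the end of a transcript (chr4:131957620-131957642), was held by 0 of 52 cardiac reads (0%, allowing up to 5.77%), 25 of 127 EDL reads (19.7%, interval 13.2 to 27.7) and 11 of 42 soleus reads (26.2%, interval 13.9 to 42). Cardiac reads lacked it, and cardiac muscle against soleus was called (adjusted exact p = 0.00395); EDL stood 19.7 points above cardiac muscle and missed the 20 points. Sptan1, the alpha spectrin of that skeleton, has a 15 nt exon, part 56, which was held by 31 of 65 cardiac reads (47.7%, interval 35.1 to 60.5), 18 of 22 EDL reads (81.8%, interval 59.7 to 94.8) and 10 of 17 soleus reads (58.8%, interval 32.9 to 81.6). The intervals overlap and no pair was called (adjusted exact p = 0.265 for cardiac muscle against EDL). Sptan1 part 56 was chosen after its values were seen.

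At the Z-disc, M-band and sarcomere, 11 listed genes had 59 small parts, of which 50 could be tested and 2 were called, beside 5.11% of all members. The median widest difference was 0 points, and the call in Ablim1 is described here. Ablim1 encodes an actin-binding LIM protein. Its part 28, 6 nt (chr19:57047066-57047071), was held by 23 of 67 cardiac reads (34.3%, interval 23.2 to 46.9), 8 of 13 EDL reads (61.5%, interval 31.6 to 86.1) and 729 of 963 soleus reads (75.7%, interval 72.9 to 78.4). Soleus exceeded cardiac muscle by 41.4 points (adjusted exact p = 8.99e-10), and by consensus reads, at 44.7%, 58.3% and 57.9%, this did not pass. The touching part 27, 141 nt, also differed, at 46.3%, 84.6% and 78.5% (adjusted exact p = 3.37e-06 for cardiac muscle against soleus). Part 29, on the other side, was at 0% in each library. The difference was therefore not confined to the 6 nt. The 48 nt exon part 39 of Ablim1 was held by 0 of 61 cardiac reads (0%, allowing up to 4.92%), 0 of 13 EDL reads (0%, allowing up to 23.1%) and 124 of 961 soleus reads (12.9%, interval 10.8 to 15.2). Soleus was the only library with a read of it, and the difference was under 20 points.

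In calcium handling and excitation-contraction coupling, 3 listed genes, Cacna1s, Ryr2 and Slc8a1, had 13 small parts. Of these, 10 could be tested, and the other 3, all in Ryr2, had no reads in the leg muscles. Fisher's exact test on their full-length counts called none of the 10, and none of the 13 was called on consensus reads, while 2 had an unadjusted p under 0.05. With 5.11% of all members called, this count does not set the list apart. None of the 13 was of intermediate use. Over all 626 members, 76 had an unadjusted p under 0.05 in some pair.

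Transcription and splicing regulators had 59 small parts in 5 listed genes, of which 11 were called, 10 in Mef2c and 1 in Sox6, beside 5.11% of all members. The median widest difference was 0 points, and without Mef2c the list has 1 call. Mef2c encodes a MADS-box transcription factor of muscle and heart development. Only 8 consensus reads of the gene came from cardiac muscle, against 38 in EDL and 65 in soleus, and each Mef2c call rests on 10 to 12 cardiac full-length reads. No Mef2c part could be tested on consensus reads against cardiac muscle.

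The gene is known for a pair of alternative exons after its DNA-binding domain, and its coding calls lie in a pair of neighbouring exons whose shares ran opposite to each other. Part 36, 15 nt (chr13:83625394-83625408), in the upstream exon, was held by 12 of 12 cardiac reads (100%, interval 73.5 to 100), 43 of 89 EDL reads (48.3%, interval 37.6 to 59.2) and 124 of 376 soleus reads (33%, interval 28.2 to 38). Part 38, 37 nt (chr13:83625536-83625572), in the downstream exon, was held by 0 of 12 cardiac reads (0%, allowing up to 25%), 47 of 93 EDL reads (50.5%, interval 39.97 to 61.1) and 248 of 378 soleus reads (65.6%, interval 60.6 to 70.4). Cardiac reads were all on the upstream exon and soleus reads mostly on the downstream one. Part 35, 9 nt, beside part 36 and parts 39 and 40, 30 and 5 nt, beside part 38 had the shares of their neighbours to within 1 point. Parts 33 to 36 form a run of 144 nt and parts 37 to 40 a run of 138 nt, both divisible by 3, although parts 38 and 40 are not. Cardiac muscle against EDL gave adjusted exact p = 0.0219 for part 36 and 0.0259 for part 38, and against soleus 0.000193 and 0.000297. EDL and soleus differed by 15.1 points at part 38 with no call. The authors list all 5 parts as artifacts.

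The remaining Mef2c calls are in untranslated first exons. Part 13, 25 nt (chr13:83524866-83524890), was held by 10 of 11 cardiac reads (90.9%, interval 58.7 to 99.8), 4 of 84 EDL reads (4.76%, interval 1.31 to 11.7) and 6 of 360 soleus reads (1.67%, interval 0.614 to 3.59). Parts 11, 12 and 14, of 6, 5 and 29 nt, touch it and had like shares, and all are on the authors' list of artifacts. Part 26, 3 nt (chr13:83575535-83575537), was held by 5 of 11 cardiac reads (45.5%, interval 16.7 to 76.6), 3 of 85 EDL reads (3.53%, interval 0.734 to 9.97) and 11 of 365 soleus reads (3.01%, interval 1.51 to 5.33). Cardiac reads were the high ones in both. Further along, coding part 59, 23 nt, was held by 1 of 12 cardiac reads (8.33%, interval 0.211 to 38.5), 49 of 98 EDL reads (50%, interval 39.7 to 60.3) and 157 of 380 soleus reads (41.3%, interval 36.3 to 46.4), with no call, and with the touching part 58 it forms a run of 96 nt.

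**Figure D4:**
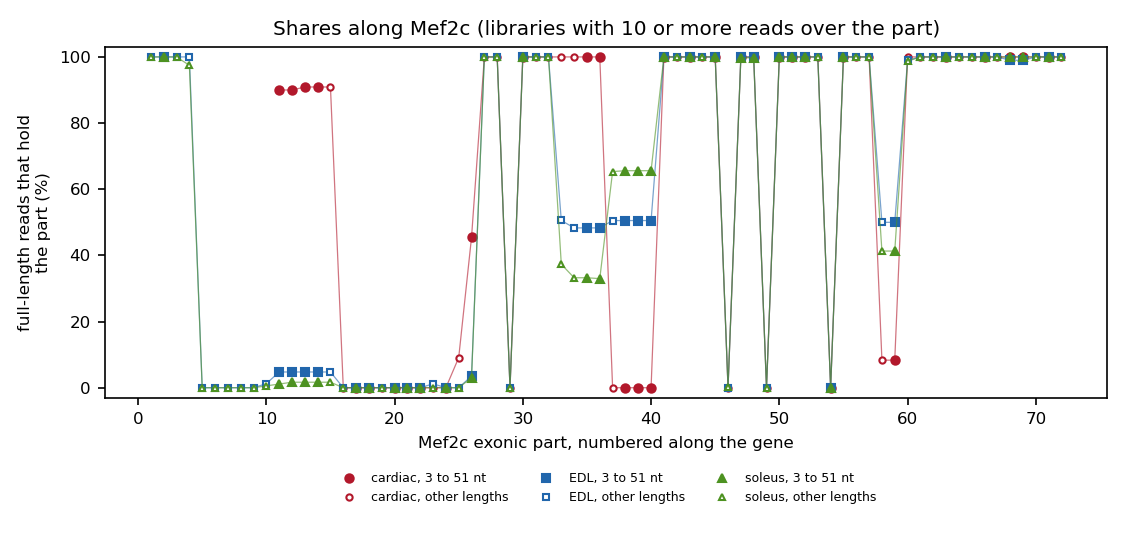
Share of full-length reads holding each Mef2c part (y axis, percent) along the gene (x axis, part number), filled for parts of 3 to 51 nt, for libraries with at least 10 reads over the part. Cardiac shares stood at 100% over parts 33 to 36 and at 0% over parts 37 to 40, on 12 reads each.

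Sox6, a repressor of slow-fibre genes in skeletal muscle, differed at a single codon's length. Part 21, the 3 bases CAG at the 5′ edge of a coding exon, was present in 1 of 13 cardiac reads (7.69%, interval 0.195 to 36), 152 of 282 EDL reads (53.9%, interval 47.9 to 59.8) and 6 of 62 soleus reads (9.68%, interval 3.63 to 19.9). EDL exceeded soleus by 44.2 points (adjusted exact p = 1.52e-08). Cardiac muscle was low as well, on 13 reads and with no call (adjusted exact p = 0.0534 against EDL). By consensus reads the shares were 9.09%, 33.3% and 23.8%, and EDL against soleus did not pass.

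Mef2a, a relative of Mef2c, and Mbnl1, a splicing regulator of the muscleblind family, had small variable parts with no call. The 24 nt exon of Mef2a, part 13, was held by 107 of 108 cardiac reads (99.1%, interval 94.9 to 99.98), 184 of 201 EDL reads (91.5%, interval 86.8 to 95) and 135 of 155 soleus reads (87.1%, interval 80.8 to 91.9). Cardiac muscle was the higher in both pairs, and the 12 points over soleus had adjusted exact p = 0.0164 but were under 20. Part 20 of Mef2a, 51 nt, stood at 52.8%, 41.3% and 56.8%, part 32, 20 nt and untranslated, at 15%, 15% and 11.2%, and Mbnl1 part 43, 36 nt, at 0%, 9.55% and 5.36%. Of these, Mef2a part 32 is named by rule and the others were chosen after their values were seen.

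The other called parts lie in genes of other roles, mostly outside the coding sequence. Amotl1, an angiomotin relative at cell junctions, has a 6 nt untranslated part 19 (chr9:14615001-14615006), held by 7 of 10 cardiac reads (70%, interval 34.8 to 93.3), 48 of 172 EDL reads (27.9%, interval 21.3 to 35.2) and 0 of 267 soleus reads (0%, allowing up to 1.12%). Soleus lacked it and was called below both others (adjusted exact p = 6.28e-10 and 1.94e-19). By consensus reads the shares were 62.5%, 9.09% and 0%, the cardiac ones too few to test, and EDL against soleus did not pass (adjusted exact p = 1). The touching part 18, 267 nt, stood at 88.5%, 51.9% and 1.86% of full-length reads, so the difference was not confined to the 6 nt. Cover fell from 26 cardiac, 258 EDL and 269 soleus reads at part 18 to 3, 124 and 267 at part 20. Where the reads that hold part 19 begin or end was not tested.

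Abcc5, an exporter of organic anions, has an untranslated 37 nt part 47 (chr16:20401035-20401071), held by 12 of 35 cardiac reads (34.3%, interval 19.1 to 52.2), 13 of 250 EDL reads (5.2%, interval 2.8 to 8.73) and 5 of 61 soleus reads (8.2%, interval 2.72 to 18.1). Cardiac muscle exceeded EDL (adjusted exact p = 0.000216), in step with its longer touching parts. Part 49, further along the chromosome, was covered by only 23 cardiac, 237 EDL and 56 soleus reads. Whether the reads that hold part 47 begin or end there was not tested. Myh2, the fast IIa myosin, has a 3 nt untranslated part 43 (chr11:67197515-67197517) that no cardiac read covered. It was held by 6 of 13 EDL reads (46.2%, interval 19.2 to 74.9) and 175 of 189 soleus reads (92.6%, interval 87.9 to 95.9), with adjusted exact p = 0.0111. The touching Myh2 part 42 was covered by 295 EDL and 7997 soleus reads, so most reads of the gene do not enter these shares. By consensus reads EDL minus soleus was -35.4 points and did not pass. AI314180, which overlaps the gene named Ecpas in GENCODE M21, has a 34 nt coding part 66 (chr4:58911869-58911902), held by 166 of 277 cardiac reads (59.9%, interval 53.9 to 65.7), 103 of 177 EDL reads (58.2%, interval 50.6 to 65.5) and 70 of 185 soleus reads (37.8%, interval 30.8 to 45.2). Soleus was called below both others (adjusted exact p = 0.000344 and 0.0254), but by consensus reads the shares were 50%, 46.3% and 48.3%, and EDL no longer lay above soleus. Its touching untranslated part 67 stood at 51.7%, 54% and 37.8% with no call. Part 69, further upstream, was covered by only 111 cardiac, 74 EDL and 115 soleus reads. Where the reads that hold part 66 begin was not tested.

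Parts of intermediate use with no called difference were 43, of which 31 were coding. Of the 10 with the most reads, the 5 coding ones not described above come first. Ptpn11 part 11, 12 nt, of the SHP2 tyrosine phosphatase, was held by 148 of 605 cardiac reads (24.5%, interval 21.1 to 28.1), 60 of 231 EDL reads (26%, interval 20.4 to 32.1) and 107 of 320 soleus reads (33.4%, interval 28.3 to 38.9). Ogt part 9, 30 nt (chrX:101642976-101643005), of the O-GlcNAc transferase, was held by 212 of 304 cardiac reads (69.7%, interval 64.2 to 74.9), 280 of 397 EDL reads (70.5%, interval 65.8 to 75) and 131 of 200 soleus reads (65.5%, interval 58.5 to 72.1). The 3 intervals overlap in Ogt, and in Ptpn11 soleus lay 8.97 points above cardiac muscle with adjusted exact p = 0.207. Ehbp1l1 part 15, 36 nt, in a protein of Rab-dependent membrane traffic, was held by 209 of 235 cardiac reads (88.9%, interval 84.2 to 92.6), 322 of 332 EDL reads (97%, interval 94.5 to 98.5) and 407 of 415 soleus reads (98.1%, interval 96.2 to 99.2). Clip1 part 40, 33 nt, in the microtubule plus-end protein CLIP-170, was held by 87 of 102 cardiac reads (85.3%, interval 76.9 to 91.5), 144 of 146 EDL reads (98.6%, interval 95.1 to 99.8) and 426 of 446 soleus reads (95.5%, interval 93.2 to 97.2). In both, cardiac muscle lay below the leg muscles by less than 20 points, with adjusted exact p = 9.36e-05 for Ehbp1l1 against soleus and 0.00294 for Clip1 against EDL. Pde4dip part 37, 21 nt, in the centrosome and Golgi protein myomegalin, stood at 95%, 98.4% and 98.8%, at the edge of the definition.

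**Figure D5:**
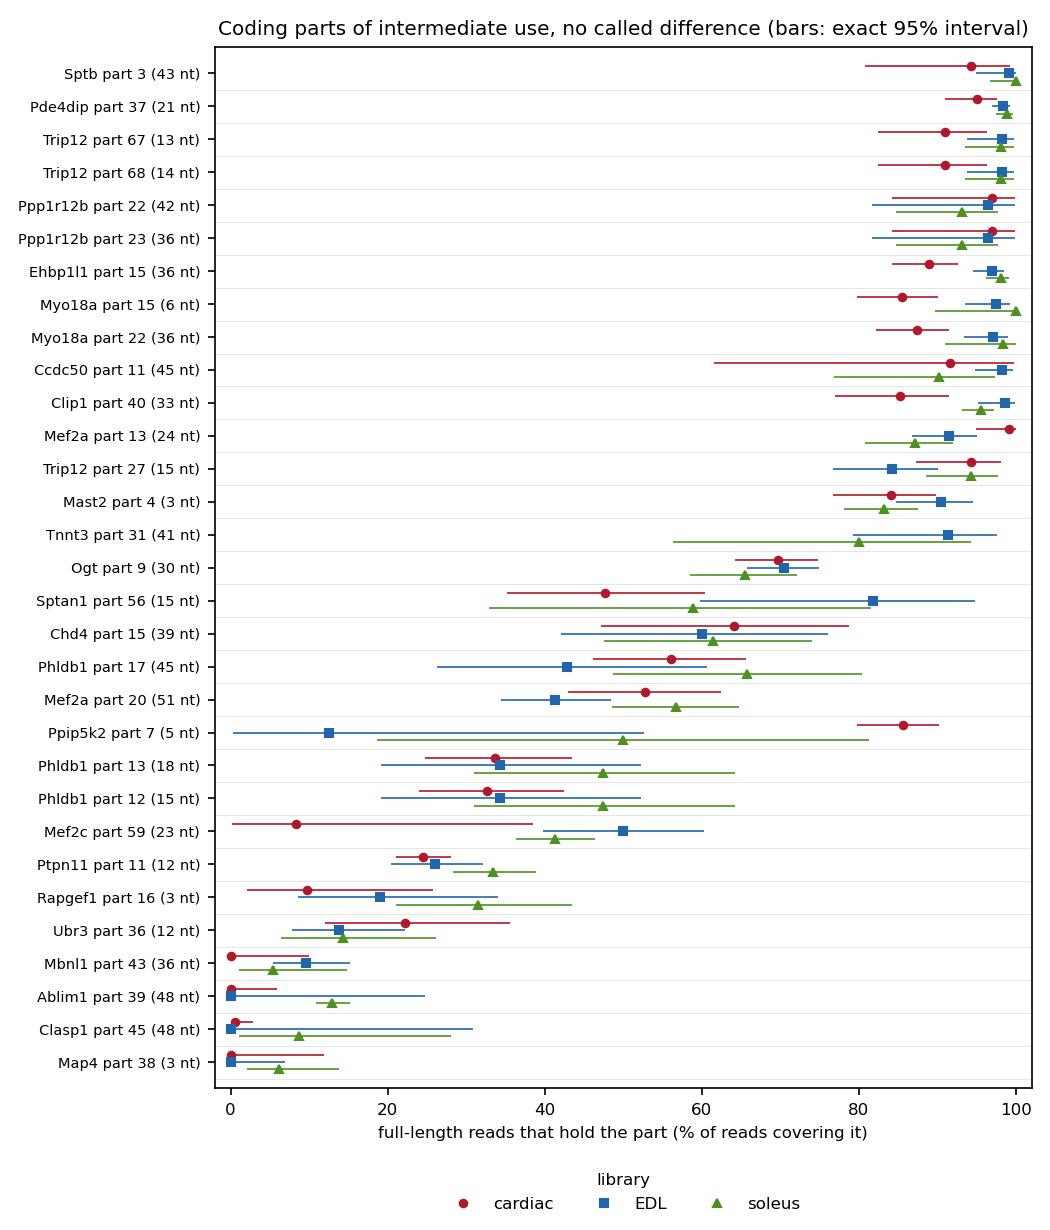
Share of full-length reads holding each of 31 coding parts of intermediate use with no called difference (x axis, percent) in cardiac muscle (circles), EDL (squares) and soleus (triangles), with exact 95% intervals, ordered by mean share. Ogt part 9 stood between 65.5% and 70.5% and Ptpn11 part 11 between 24.5% and 33.4%.

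The next 5 parts, of which 3 are shown above as additions of 3 to 15 nt at an exon edge, were chosen after their values were seen. Rapgef1 part 16, the bases CAG, which the authors list as an artifact, in a guanine nucleotide exchange factor for Rap proteins, was held by 3 of 31 cardiac reads (9.68%, interval 2.04 to 25.8), 8 of 42 EDL reads (19%, interval 8.6 to 34.1) and 23 of 73 soleus reads (31.5%, interval 21.1 to 43.4). The rest of its exon, the touching part 17 of 153 nt, was itself held by 29%, 35.7% and 61.6% of reads. The shares of part 16 thus include reads that lack the whole exon. Ubr3 part 36, 12 nt in a ubiquitin ligase, was held by 12 of 54 cardiac reads (22.2%, interval 12 to 35.6), 14 of 101 EDL reads (13.9%, interval 7.79 to 22.2) and 8 of 56 soleus reads (14.3%, interval 6.38 to 26.2). Trip12 part 27, 15 nt in another ubiquitin ligase, was held by 83 of 88 cardiac reads (94.3%, interval 87.2 to 98.1), 107 of 127 EDL reads (84.3%, interval 76.7 to 90.1) and 115 of 122 soleus reads (94.3%, interval 88.5 to 97.7). No pair was called in the 3 genes, and all intervals of Ubr3 overlap. Chd4 part 15, 39 nt in the helicase of the NuRD complex, stood at 64.1%, 60% and 61.4%, and Map4 part 38, 3 nt in a microtubule-binding protein, at 0%, 0% and 6.17%.

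Of the 30 out-of-frame parts that were of intermediate use or called, 17 lay outside the coding sequence. Of the 13 coding ones, 6 lay in a run of touching parts whose length is divisible by 3. Over all 30 this held for 12, and of the 15 called ones for 10. The coding ones with no call were Mef2c part 59, Ppip5k2 part 7, Sptb part 3, Tnnt3 part 31 and Trip12 parts 67 and 68. Ppip5k2 part 7, 5 nt in an inositol pyrophosphate kinase (chr1:97716542-97716546), was held by 166 of 194 cardiac reads (85.6%, interval 79.8 to 90.2), 1 of 8 EDL reads (12.5%, interval 0.316 to 52.7) and 5 of 10 soleus reads (50%, interval 18.7 to 81.3). The leg muscles were too thinly read for a call, and with the touching part 8 it measures 63 nt. Tnnt3 part 31, a 41 nt exon of fast troponin T (chr7:142513665-142513705), was read in the leg muscles alone, by 42 of 46 EDL reads (91.3%, interval 79.2 to 97.6) and 16 of 20 soleus reads (80%, interval 56.3 to 94.3). Sptb part 3, 43 nt in a beta spectrin, stood at 94.3%, 99.1% and 100%, and Trip12 parts 67 and 68 at 91%, 98.2% and 98.2% each. Small departures from full use were seen in untranslated parts of first exons, in Kif1b (part 70, 100%, 98% and 95%; part 71, 100%, 98% and 94.9%), Myo18a (part 14, 85.5%, 97.4% and 100%) and Myh6 (part 47, 98.5%, 97.3% and 94.8%). Myh1 part 4, 6 nt and untranslated, was held by 78 of 673 EDL reads (11.6%, interval 9.27 to 14.3) and 152 of 1579 soleus reads (9.63%, interval 8.22 to 11.2), shares that differed by 1.96 points.

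Among small coding exons that touch no other part, the variable and the constant ones were set side by side. Of 16 that were of intermediate use or called, in 15 genes, 13 were in-frame (81.2%), against 66 of 111 others (59.5%). Their median GC content was 53.8% and that of the others 47.9%. No test was run on either.

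The shortest members, 3 nt long, numbered 29 in 20 genes, and 5 of them were of intermediate use and 3 called. Among these 29, the 5 with the most full-length reads, in Col4a1, Dag1, Nedd4, Opa1 and Zfp106, were held by nearly all reads: Col4a1 part 35 by every one of the 600 cardiac, 162 EDL and 125 soleus reads, and Opa1 part 44 by 99.7%, 99.5% and 99.2%. Dag1 part 3 and Nedd4 part 4 stood at 100% in each library and Zfp106 part 25 at 99.8%, 99.1% and 99.5%. Less covered parts of 3 nt were not all like them: Mef2c part 22 was at 0% in each library, Phldb1 part 15 at 0.935%, 2.86% and 0%, and the variable ones are given above. Just inside the length limits, 14 parts of 51 nt held 1 of intermediate use, and just outside, 15 of 52 nt held 0 and 16 of 2 nt held 1. At the coverage limit, 71 parts with a largest coverage of 30 consensus reads held 1 of intermediate use and 1 called, and 23 parts with 29 held 5 and 0. Of the members, 47 are in Smarca2 and 34 in Mef2c, so counts of parts weigh such genes heavily.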

How the data were processed

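Total RNA of 1 library per tissue was sequenced on PacBio after 5 to 10 kb size selection, per the labels' protocols. Reads were aligned to mm10 (GRCm38), with STAR 2.5.0am named in the submitters' processing notes. Per the deposited protocol sheet, the authors kept 686 genes, cut their annotation into exonic parts and counted, with exCOVator, reads of both kinds, consensus and full-length, that span a part's place and those holding it. These deposited counts are raw. Other parameters are not given in the sources used here.

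The members and gene lists were chosen with earlier results of these data known. Each part's share, its exact interval and two-sided Fisher's exact tests on full-length reads were computed with scipy 1.17.1 (Python 3.11.15, pandas 2.3.3, numpy 2.4.6, matplotlib 3.10.9), where both libraries had at least 10 reads, with Benjamini-Hochberg adjustment over all parts of the table. The procedure was tested on simulated data. Coding state and sequences came from GENCODE M21, matched by position (620 of 626 members had a sequence, and 13 lie in 3 genes whose names are not in that annotation). Parts are numbered within a gene along the chromosome, and positions count from 1.

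Named in the text were the 25 widest called differences, the 10 best covered parts of intermediate use with no call, all out-of-frame parts called or of intermediate use and the 5 shortest members (ties at 3 nt taken by the most full-length reads, an order the rule did not state), while other parts, such as further ones of the same genes, were chosen after their values were seen. The alternatives changed the kind of read, the read minimum, the difference required, the adjustment, the length range and the members counted. The values of 1 called part are not reported here.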

Additional observations from a re-analysis of the deposited data

How the results depend on the processing

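Each tissue had 1 library and no replicate, so no library could be left out. No paired analysis was possible because each group holds 1 library. The direction of a called difference seldom changed with the kind of read, but the number of calls did. Counted and tested on consensus reads, 6, 4 and 1 members were called in cardiac muscle against EDL, cardiac muscle against soleus and EDL against soleus, in place of 22, 24 and 12. Of the 58 called combinations of part and pair, 46 kept their direction without passing, 11 passed, and 1 reversed, AI314180 part 66 in EDL minus soleus, at -1.93 points. With 30 full-length reads in both libraries, 10 and 12 calls were left in the pairs with cardiac muscle, and with 30 consensus reads in both, 4, 5 and 5. A difference of 30 points left 7 calls in EDL against soleus. Lengths of 3 to 30 nt left 13 and 7 in the pairs with EDL, and parts that touch no other part 4, 1 and 3. The following were chosen after seeing the data. Coding parts alone gave 13, 12 and 6 calls. Leaving out Mef2c gave 12 and 14 in the pairs with cardiac muscle, and leaving out the authors' artifacts 10 and 12. Intermediate use, 43 in-frame and 26 out-of-frame parts, became 80 and 72 with limits of 1 and 99%, 13 and 4 for parts that touch no other, and 26 and 13 for lengths of 3 to 30 nt. Out-of-frame parts came to 50 by consensus reads and 12 among coding parts. In-frame parts outnumbered out-of-frame ones in each of these counts. The causes were not tested. Counting a run of like parts 1 time, a difference of 10 points and Holm's adjustment left each count of calls within 1.5 times. Depth limits the cardiac shares of Mef2c, Amotl1, Sox6 and Tbc1d1 and the EDL shares of Clasp1 and Myh2, each on 10 to 13 full-length reads.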
